A study of Capra hircus with 2 samples.

Results

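The miR-181 family was followed in small RNA of the mammary gland of Xinong Saanen dairy goats. Its members were the conserved miRNAs of the study's list of mature sequences whose name begins with miR-181, namely miR-181a, miR-181b, miR-181c and miR-181d, which are 4 of the 346 listed miRNAs. A read was counted for a member when its first 18 or more bases were identical to the listed sequence, and it was given to the sequence with the longest match. The dry period library and the peak lactation library were each made from the pooled RNA of 3 goats aged 2.5 years, for which the study describes no treatment. Each stage is thus 1 pooled library, and no value below carries an error between animals. The study's methods put dry period sampling 320 days, and peak lactation sampling 75 days, after lambing, the labels reverse these days, and the stages here follow the sample titles. The libraries held 14851375 clean reads (dry period) and 15712891 clean reads (peak lactation). Conserved miRNAs together held 61.15% of clean reads at the dry period and 14.42% at peak lactation. This gap touches each level given per clean read, and its part in the results was not tested. Intervals are 95% intervals that cover the counting of reads alone, and PCR copies of a molecule cannot be told from independent molecules.

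A miRNA is a short RNA that guides a silencing complex to messenger RNAs, mostly by pairing of its bases 2 to 8, the seed, with the target. The miR-181 members are cut from the 5′ arm of their hairpin precursors. In mammals miR-181a and miR-181b are made together from paired loci, and miR-181c and miR-181d from a further locus of their own. The family is best known from lymphocytes, where miR-181a tunes the sensitivity of the T cell receptor, and it is also made in many other cells, those of the vessel wall and the epithelium among them.

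The 4 listed mature sequences are shown with the seed in capitals, because the members share it and differ only in the bases behind it.
miR-181a: aACAUUCAacgcugucggugaguu
miR-181b: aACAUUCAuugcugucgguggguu
miR-181c: aACAUUCAaccugucggugaguu
miR-181d: aACAUUCAuuguugucgguggguu

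Of the 346 listed miRNAs, only these 4 carry the seed ACAUUCA at bases 2 to 8. Positions are counted from 1 at the 5′ end. Between miR-181a and miR-181b there are 3 substitutions, A9U, C10U and A21G. Between miR-181b and miR-181d there is 1, C12U. The sequence of miR-181c is that of miR-181a with the base at position 11 missing, so it is 23 nt long, against 24 nt for the others. By sequence, then, miR-181c is the relative of miR-181a, and miR-181d that of miR-181b. By gene position the grouping is another. In the RefSeq gene table of the goat assembly ARS1.2, MIR181C and MIR181D are direct neighbours, with NANOS3 on one side and ZSWIM4 and MIR23A on the other. MIR181B lies elsewhere, near NR6A1 and OLFML2A, and MIR181A was not matched in that table.

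All members were present in both libraries, and they were ordered in the same way. The dry period library held for miR-181a 21728 reads, or 1463 reads per 1000000 clean reads (RPM, interval 1444 to 1483). In the peak lactation library it had 11373 reads, or 724 RPM (711 to 737). It was the most abundant member, at rank 32 of the 346 miRNAs in the dry period and rank 27 at peak lactation. The reads of miR-181b numbered 7122 in the dry period, or 480 RPM (469 to 491), and 1053 at peak lactation, or 67.0 RPM (63.1 to 71.2). Its rank was 57 and then 78, so it moved down the list while miR-181a moved up.

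For miR-181d, 1179 reads were counted in the dry period, which is 79.4 RPM (75.0 to 84.0), and 47 at peak lactation, which is 2.99 RPM (2.25 to 3.98). The scarcest member was miR-181c, with 210 reads or 14.1 RPM (12.4 to 16.2) in the dry period and 8 reads or 0.509 RPM (0.258 to 1.0) at peak lactation. The rank of miR-181d went from 101 to 174 and that of miR-181c from 155 to 234. Neighbours in the order a, b, d, c did not overlap in their intervals in either library. The 8 reads of miR-181c lie above the smallest abundance taken as detectable, 3 reads or 0.19 RPM, but little can be said of their makeup.

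**Figure D1:**
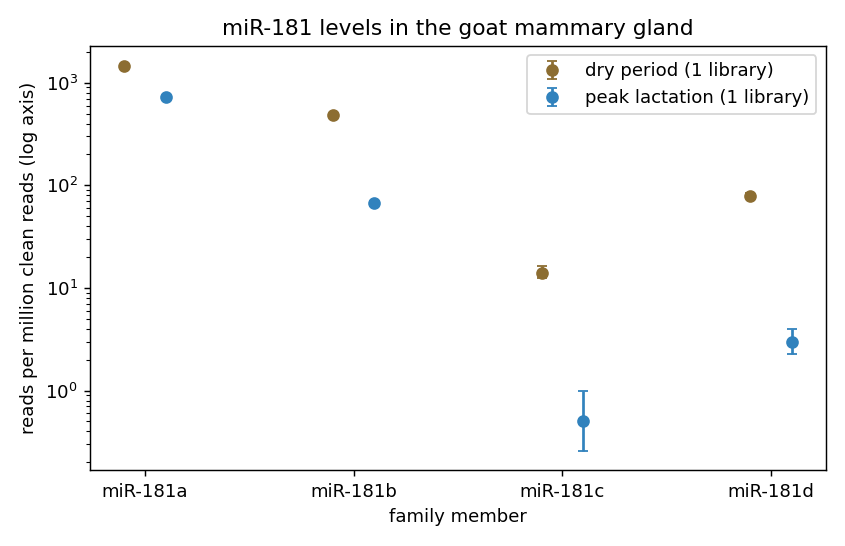
Level of each miR-181 member in reads per 1000000 clean reads on a log axis, in 1 pooled library per stage, with 95% Wilson intervals of the counts as bars. The gap between the stages widens from miR-181a (1463 and 724) through miR-181b (480 and 67.0) to miR-181d (79.4 and 2.99) and miR-181c (14.1 and 0.509).

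Per clean read, every member was lower at peak lactation, and by very different amounts. The log2 fold change of peak lactation over dry period was -1.02 for miR-181a (interval -1.05 to -0.98), a 2.02-fold difference whose interval spans the threshold of -1. It was -2.84 for miR-181b (-2.93 to -2.75), -4.80 for miR-181c (-5.79 to -3.80) and -4.73 for miR-181d (-5.15 to -4.31). These are folds of 7.16, 27.8 and 26.5. In bulk tissue, fewer cells of a type and less of the RNA per cell cannot be told apart. By the study's criterion, an absolute log2 fold change above 1 and an Audic-Claverie p below 0.01, all 4 members were called lower, against 67.7% of the 257 conserved miRNAs that reached 1 RPM in one library. That test compares these libraries and not the stages.

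Most conserved miRNAs were lower per clean read, with a median log2 fold change of -1.44 and quartiles of -2.15 and -0.92 over the 257. Set among them from the lowest value upward, miR-181c was at rank 2, miR-181d at rank 3, miR-181b at rank 32 and miR-181a at rank 177. So miR-181a was above the median, the other members below the lower quartile. When the summed conserved miRNA reads served as the total instead, every log2 fold change went up by 2.08. The direction of miR-181a then turned, to 1.07, and miR-181b was at -0.76, miR-181c at -2.71 and miR-181d at -2.65. On that scale miR-181c and miR-181d were called lower, against 5.84% of the 257, and miR-181a was called higher, against 33.1%. Calls over all 257 split into 174 lower and 3 higher per clean read, and into 15 lower and 85 higher per conserved miRNA read. With the TMM factors of edgeR, which shift the values by 1.30, miR-181a was at 0.28, miR-181b at -1.54, miR-181c at -3.50 and miR-181d at -3.43. With the size factors of DESeq2 they were at 0.38, -1.44, -3.40 and -3.33, and the calls over all miRNAs split into 48 lower and 21 higher by TMM and 42 lower and 28 higher by DESeq2. Whether miR-181a was lower or higher at peak lactation therefore depends on the total used, while miR-181b, miR-181c and miR-181d were lower on each of the 4 scales.

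**Figure D2:**
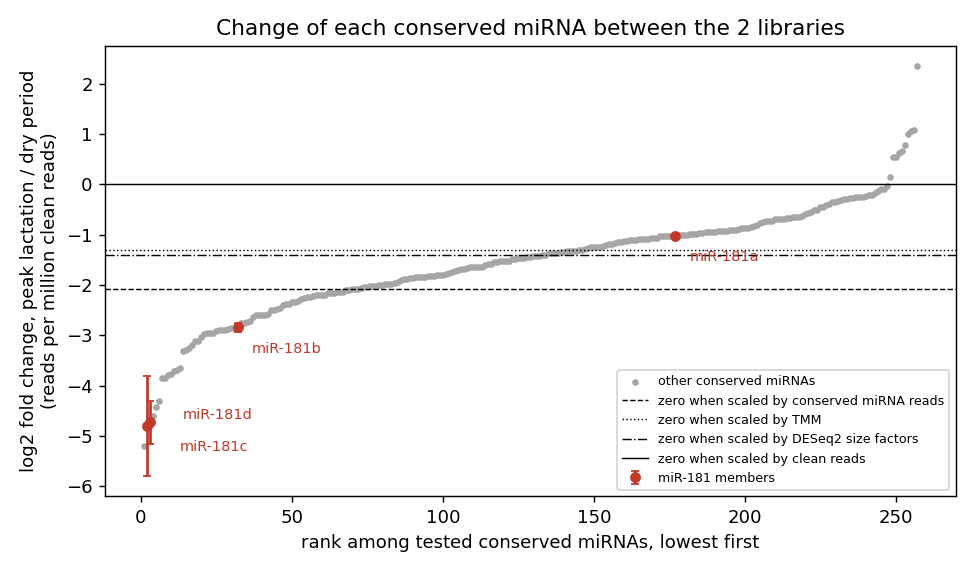
Log2 fold change of peak lactation over dry period, in reads per 1000000 clean reads, for the 257 tested conserved miRNAs in rising order, with the miR-181 members in red and their 95% intervals as bars. Horizontal lines mark where 0 would lie under each total, and miR-181a (-1.02) lies below the line for clean reads and above the others, while miR-181b, miR-181c and miR-181d lie below all lines.

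Ratios between members do not depend on the total of the library. In the dry period library, miR-181a and miR-181b together had 28850 reads and miR-181c and miR-181d together 1389, which is 20.8 to 1. In the peak lactation library the reads were 12426 and 55, which is 226 to 1. The pair c/d was thus 10.9-fold lower relative to the pair a/b at peak lactation, a log2 ratio of -3.44 (exact conditional interval -3.86 to -3.05). The direction of this difference was known from earlier results of these data, so it is given as a size and not as independent evidence. Leaving out miR-181c and its 8 reads gave -3.43 (-3.89 to -3.01).

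The pair a/b did not act as a unit. For each read of miR-181b there were 3.05 of miR-181a at the dry period and 10.8 at peak lactation, so miR-181b was 3.54-fold lower relative to miR-181a (log2 ratio -1.82, interval -1.92 to -1.72). The distance from miR-181b to the pair c/d was of about that size, with a log2 ratio of -1.90 (-2.33 to -1.50). Against miR-181b alone, miR-181c was at -1.96 (-3.19 to -0.95) and miR-181d at -1.89 (-2.35 to -1.46). Against miR-181a alone, miR-181c was at -3.78 (-5.01 to -2.77) and miR-181d at -3.71 (-4.17 to -3.29). The miR-181c reads were 0.178 of the miR-181d reads at the dry period and 0.170 of them at peak lactation, with a log2 ratio of d over c of 0.07. Its interval of -1.06 to 1.38 is wide, so a difference of up to those sizes between the neighbours was not detectable at this depth (two-sided Fisher's exact test, p = 1 raw and adjusted over the 6 pairs). The intervals of the other 5 pairs excluded 0. Relative to the other members miR-181a was thus highest at peak lactation and miR-181b next, while the order of miR-181c and miR-181d was not resolved.

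Within the family, the share of miR-181a was 71.9% of the reads (interval 71.3 to 72.4%) in the dry period and 91.1% (90.6 to 91.6%) in the other library, and the intervals did not overlap. The share of miR-181b was 23.6% (23.1 to 24%) and then 8.44% (7.96 to 8.94%). For miR-181d the shares were 3.90% and 0.377%, and for miR-181c 0.694% and 0.0641%. Since the seed is common to all 4, the summed reads give the amount of this seed, which was 2036 RPM (dry period) and 794 RPM (peak lactation). Per conserved miRNA read the order turned, with 0.333% (dry period) and 0.551% (peak lactation). The log2 fold change of the sum was -1.36 per clean read, 0.73 per conserved miRNA read, -0.06 by TMM and 0.04 by DESeq2.

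Members that differ by 1 base could be confused through sequencing errors, so the reads at those positions were counted. With the rest of the first 18 bases as in miR-181b, position 12 held C in 7122 reads and U, which makes it miR-181d, in 1179 reads of the dry period library. A was found there in 0 reads and G in 1 read. At peak lactation the counts were 1053 for C, 47 for U and 0 for both A and G. In the same position of miR-181a, where no listed member has a U, U was read in 33 reads of the dry period library, or 0.152%, and in 10 reads at peak lactation, or 0.0878%. The reads of miR-181d were 14.2% and 4.27% of those of miR-181b and miR-181d together. For miR-181c, which is miR-181a without position 11, the other single-base gaps at positions 9 to 16 of miR-181a were counted. Each of these 7 gaps had between 0 and 3 reads in the dry period library, against 210 for miR-181c, and between 0 and 1 at peak lactation, against 8. Both scarce members were thus well above the reads of like changes that name no member.

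The 5′ ends, which set the seed, were nearly uniform. Reads of miR-181a that began 1 base before or 1 to 3 bases after the listed start numbered 47 in the dry period, or 0.216% (0.162 to 0.287%), and 23 at peak lactation, or 0.202% (0.135 to 0.303%). For miR-181b the shares were 0.406% and 0.473%, from 29 and 5 reads. For miR-181d there were 2 such reads at the dry period and 0 at peak lactation, and for miR-181c 0 in both libraries. A count of 0 among the 210 reads of miR-181c allows a share of up to 1.80% (Wilson). At peak lactation the 8 reads of miR-181c allow up to 32.4%, and the 47 reads of miR-181d up to 7.56%. A shift of the seed between the stages was not detectable, and for these members the depth could have shown only a large one.

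The 3′ ends varied far more, and each member had its own pattern, as the plot of read lengths shows. Reads shorter than the listed sequence made up 49.7% of miR-181a (49.0 to 50.4%) in the dry period and 54.8% (53.9 to 55.8%) at peak lactation. For miR-181b they were 31.6% (30.5 to 32.6%) and 33.0% (30.2 to 35.8%), and for miR-181d 28.5% (26.0 to 31.1%) and 25.5% (15.3 to 39.5%). For miR-181c the share was 17.6% (13.1 to 23.3%) in the dry period, and 3 of the 8 reads were short at peak lactation. Among the members, the intervals of the libraries were apart for miR-181a alone. Over all other conserved miRNAs, which follow their most abundant members, 13.4% and 18.5% of the reads were short. Taken miRNA by miRNA, among the 90 others with at least 500 reads in both libraries, 43.3% had a higher short share at peak lactation, the median difference was -0.0556 percentage points, and the intervals were apart in 38.9%. Intervals that do not overlap are thus common at these depths and do not set miR-181a apart.

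**Figure D3:**
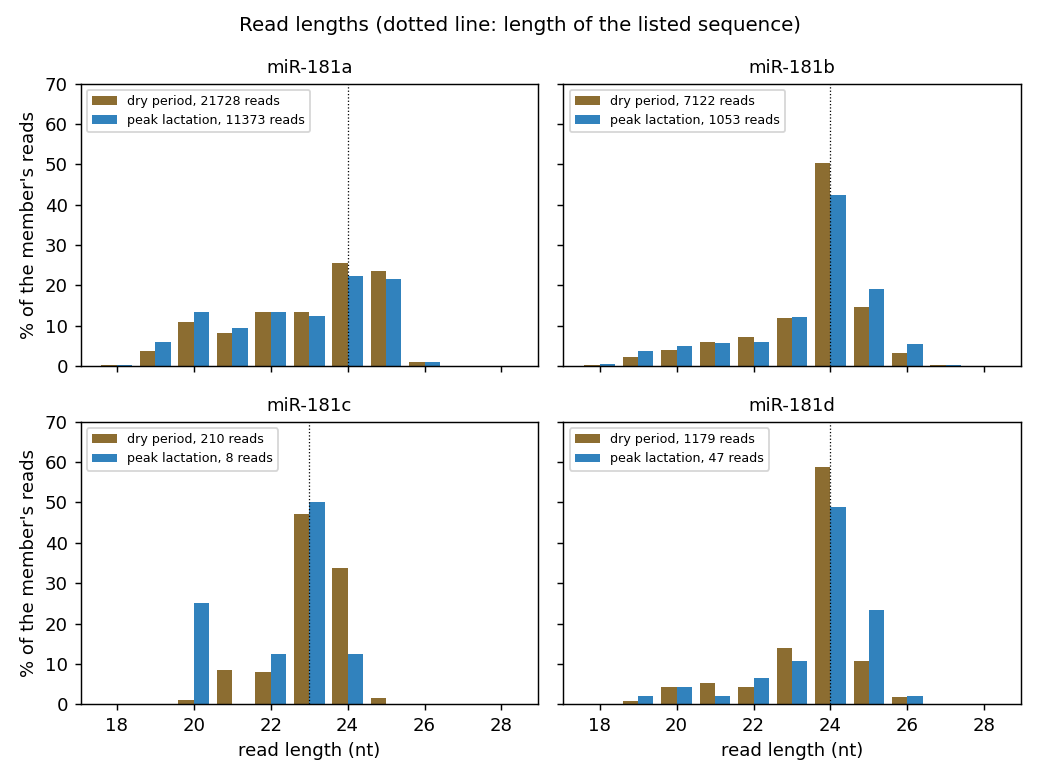
Read lengths from 18 to 28 nt as a percentage of each member's reads in the dry period and peak lactation libraries, with the listed length as a dotted line (a few miR-181a reads of 30 and 33 nt are not drawn). The reads of miR-181a spread from 19 to 25 nt, while miR-181b and miR-181d peak at 24 nt and miR-181c at 23 nt in both libraries, the last on 8 reads at peak lactation.

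The tag identical to the listed sequence was the most frequent tag of each member in both libraries. It held 23.5% of the miR-181a reads at the dry period and 20.6% at peak lactation. It held 41.6% and 34.9% of the miR-181b reads, 44.3% of the miR-181c reads in the dry period, and 43.6% and 36.2% of the miR-181d reads. Frequent tags that end in other bases are shown because the members part there, and they are printed with the bases past the match in capitals.
miR-181a, 4813 dry period and 2320 peak lactation reads: aacauucaacgcugucggugaguuU
miR-181c, 69 and 1 reads: aacauucaaccugucggugaguuU
miR-181b, 655 and 134 reads: aacauucauugcugucgguggguuU
miR-181b, 408 and 64 reads: aacauucauugcugucggugggA
miR-181d, 122 and 3 reads: aacauucauuguugucgguggguA

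Some reads ran past or left the listed bases with U alone or A alone. In the dry period, U ends made up 24.2% of miR-181a (23.7 to 24.8%) and 34.3% of miR-181c (28.2 to 40.9%). They were 11.9% of miR-181b (11.1 to 12.7%) and 7.38% of miR-181d (6.02 to 9.01%). A ends made up 7.31% of miR-181a (6.97 to 7.67%) and 1.90% of miR-181c (0.743 to 4.79%). They were 14.8% of miR-181b (14.0 to 15.6%) and 21.7% of miR-181d (19.5 to 24.2%). The A ends depend on the listed bases, since position 21 is A in miR-181a and G in miR-181b. Between miR-181c and miR-181d the matching bases differ in the same way. An A added at that place counts as a listed base in miR-181a and miR-181c, but as an A end in miR-181b and miR-181d. The frequent A ends lie elsewhere, at positions where all of miR-181a, miR-181b and miR-181d list U. In the dry period library, A stood at position 23 in a miR-181b tag of 408 reads (5.73%). In miR-181d it stood at position 24 in a tag of 122 reads (10.3%) and at position 23 in one of 76 (6.45%). How much of the remaining A difference comes from position 21 was not tested. In the dry period library, miR-181a and miR-181c were thus above miR-181b and miR-181d for U ends and below them for A ends, with intervals apart. The intervals do not resolve which member lies nearest to which. Other measures of the 3′ end did not group them so, since short reads were most frequent in miR-181a and least frequent in miR-181c. The hairpin that the study sequenced for miR-181b has G at position 25, while the reads of miR-181b that went past the listed end had U there in 824 of 992 cases, A in 153 and G in 8 in the dry period. Other precursors of miR-181a and miR-181b were not analysed here, and whether the U was encoded was not tested.

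Between the libraries the intervals of the U ends were apart for miR-181a, miR-181b and miR-181d, and those of the A ends overlapped for every member. With A alone, miR-181a was at 7.41% (6.95 to 7.91%) and miR-181b at 15.9% (13.8 to 18.2%) at peak lactation, and miR-181d at 17.0% (8.89 to 30.1%), with intervals that overlap those of the dry period. With U alone, miR-181b went from 11.9% (11.1 to 12.7%) to 18.7% (16.5 to 21.2%), and miR-181d from 7.38% (6.02 to 9.01%) to 19.1% (10.4 to 32.5%), the latter on 9 of 47 reads. For miR-181a the share was slightly lower at peak lactation, at 22.5% (21.7 to 23.2%) against 24.2% (23.7 to 24.8%). Among the 90 other miRNAs, 51.1% had a higher U share at peak lactation, with a median difference of 0.00555 percentage points. Their intervals were apart in 22.2% for U ends and in 23.3% for A ends.

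**Figure D4:**
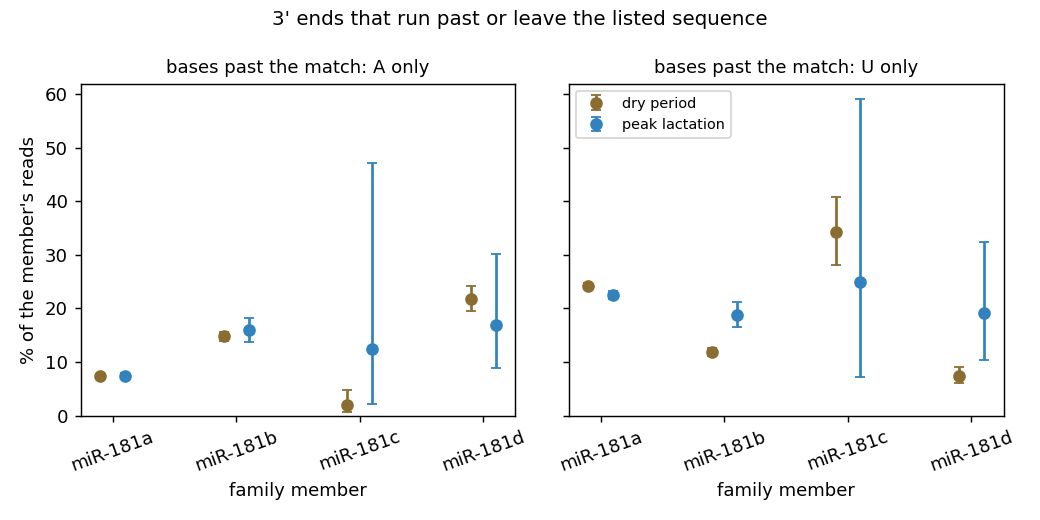
Percentage of each member's reads whose bases past the match with the listed sequence were A alone (left) or U alone (right), in 1 library per stage, with 95% Wilson intervals as bars. In the dry period library miR-181b and miR-181d were above miR-181a and miR-181c for A and below them for U; the bars of miR-181c at peak lactation rest on 8 reads.

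The opposite arm of the precursor could be read for miR-181b only, whose goat hairpin of 110 nt is given in the study's supplement. Tags lying wholly within that hairpin numbered 4677 reads on the 5′ arm and 7 reads on the 3′ arm in the dry period library. The 3′ arm share was 0.149% (exact interval 0.0601 to 0.308%). At peak lactation the reads were 599 and 2, or 0.333% (0.0403 to 1.20%), so the arms did not differ between the libraries beyond counting error. Other precursors of miR-181b were not analysed. If they give the same mature sequence, their 5′ arm reads are included here, and the shares may understate the 3′ arm of this hairpin. The leading 3′ arm tag, shown because it places the cut of the passenger strand, began at hairpin position 76 and had 6 dry period reads.
3′ arm of miR-181b: cucacugaacaaugagugca

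Of the genes near MIR181C and MIR181D in that table, MIR23A is the one whose product was counted. The miRNA miR-23a, whose gene follows ZSWIM4 in the gene order, had 17190 and 6910 reads, a log2 fold change of -1.40 (-1.44 to -1.36) per clean read. The miRNA miR-27a-3p, made from a transcript shared with miR-23a in mammals but with no place looked up here, had 22717 and 9647 reads, or -1.32 (-1.35 to -1.28). The listed sequence of miR-27a-3p is 18 nt long and the same as that of miR-27b, so these reads belong to either. Per conserved miRNA read these became 0.69 and 0.77. Both values lie near the median of all miRNAs and far from the -4.74 (-5.13 to -4.35) of miR-181c/d summed. Both miRNAs were chosen after the values had been seen.

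By log2 fold change over these libraries, the closest to miR-181c/d among miRNAs that reached 100 reads in either library were miR-183 (-4.42), miR-34a (-5.20) and miR-182 (-3.85). At peak lactation they had only 5, 4 and 36 reads. Their intervals were -5.67 to -3.16, -6.58 to -3.82 and -4.33 to -3.36. Closest to miR-181a/b, at -1.30, were miR-744 (-1.30), miR-27a-3p and miR-27b. With 1 value per stage, likeness here means no more than a similar ratio.

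Values of miRNAs that mark other cell types were read beside those of the family. Of 7 miRNAs of blood and immune cells, 4 were called lower per clean read and 0 higher, against 67.7% lower and 1.17% higher over all 257. Per conserved miRNA read 0 were called lower and 4 higher, where 5.84% of all were lower and 33.1% higher. Their log2 fold changes ran from -2.92 for miR-142* to -0.03 for miR-146b, with a median of -1.01, which became 1.08 per conserved miRNA read. Summed, they reached 1811 RPM (dry period) and 1462 RPM (peak lactation). Most of these sums was miR-146b, the least changed of the 7, with 1300 and 1276 RPM. The lymphocyte miRNAs miR-150 and miR-155 were at -0.41 and -1.01, and miR-142, found across blood cells, at -1.64. None of the 7 was as low as miR-181c or miR-181d. Of 7 epithelial miRNAs 3 were called lower per clean read, and 4 higher per conserved miRNA read, with a median of -0.96 (1.13 per conserved miRNA read) and a range from -1.99 for miR-429 to -0.09 for miR-141. Their summed level was 3009 and 1589 RPM, so miRNAs typical of mammary epithelium were well detected in both libraries.

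Among 4 miRNAs of smooth muscle and endothelium 1 was called lower per clean read, miR-145 at -2.76, and 3 higher per conserved miRNA read, and the median was -0.80 (1.29 per conserved miRNA read). Their summed levels were 11975 and 5281 RPM. Of 4 skeletal muscle miRNAs 3 were called lower per clean read, and 1 higher per conserved miRNA read, with a median of -1.61 (0.47 per conserved miRNA read). The summed level of these 4, most of it miR-1, was 7241 and 3847 RPM. The red blood cell miRNAs went the other way, with 2 of 3 called higher per clean read and 3 of 3 per conserved miRNA read, a median of 1.06 (3.14 per conserved miRNA read) and summed levels of 110 and 190 RPM. Over all 257 miRNAs, 67.7% were called lower and 1.17% higher per clean read, and 5.84% lower and 33.1% higher per conserved miRNA read. No list had any marker at 0 reads. The part of cell composition in the miR-181 values was not tested.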

How the data were processed

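Small RNA libraries of the goat mammary gland, 1 per stage, were analysed. The authors removed low-quality, adaptor-contaminated, insert-free or poly(A) reads and tags shorter than 18 nt, and deposited each remaining tag with its count of clean reads, neither normalized nor aligned. Groups follow the sample titles. Mature sequences, and the miR-181b hairpin, were taken from the study's supplementary tables, and their counts were not used. Tags equally close to several miRNAs were counted for each. Counts were divided by clean reads and multiplied by 1000000, a count of 0 was set to 0.01 RPM, and only miRNAs reaching 1 RPM in either library were tested. The two-sided Audic-Claverie probability followed the study's methods. Log2 fold changes carry intervals derived from each miRNA's split of reads (Wilson), and ratios between members those of the conditional odds ratio.

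The members and the lists were chosen with earlier results of these data known. Named miRNAs were the members, the 3 others closest in log2 fold change to each pair with at least 100 reads, and fixed cell type lists. Counting and test were tested on simulated data, where 317 of 317 simulated miRNAs received their counts. Python 3.11.15, numpy 2.4.6, scipy 1.17.1, matplotlib 3.10.9 and R 4.3.3 with edgeR 4.0.16 and DESeq2 1.42.0 (scaling factors only) were used. Alternatives changed the matching, the total, the filters, the added count and the p adjustment. No genome build is named in the files of reads, and the assembly ARS1.2 served for gene order alone, so no coordinates are given.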

Additional observations from a re-analysis of the deposited data

Results flagged for a closer look

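Reads of the 3′ arm of the miR-181b hairpin lie outside the counts of the members and were above the 3 reads taken as detectable in the dry period library, with 7 reads over 2 tags. In the peak lactation library there were 2 reads, below that limit.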

How the results depend on the processing

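Results with 1 pooled library per stage cannot be recomputed without a replicate. No paired analysis was possible because each stage has 1 library. The log2 fold change of miR-181a turned from -1.02 to 1.07 with the reads of conserved miRNAs as the total, 0.28 with edgeR's TMM factors, 0.38 with DESeq2's size factors and 0.34 with the miR-181 reads as the total, an alternative chosen after seeing the data. These alternatives differ from the main one by a constant for all miRNAs. With conserved miRNA reads as the total, miR-181b was no longer past the threshold, at -0.76, and 2 members in place of 4 were called lower. The values of miR-181c ran from -5.20 to -2.71 and those of miR-181d from -5.00 to -2.65 over 13 alternatives, and each of them stayed past the threshold. The log2 ratio of miR-181c/d to miR-181a/b stayed below 0 with its interval in each of 11 alternatives, from -3.78 to -1.89, where the smallest sizes are those against miR-181b alone (the ratio to miR-181b alone and leaving out miR-181c were chosen after seeing the data). The share of miR-181c/d in the family moved with identical tags alone to 7.0% (dry period) and 0.770% (peak lactation), and with tags of 22 to 24 nt to 6.31% and 0.604%. With an anchored stretch of 20 nt, the short reads of miR-181a fell to 46.4% (dry period) and 50.2% (peak lactation) and those of miR-181b to 29.2% and 28.7%, since the shortest tags are then left out. The order of the libraries thereby turned for miR-181b, from 31.6% and 33.0%. The short share of miR-181c at peak lactation went from 37.5% of its 8 reads to 16.7%. The depth limits miR-181c at peak lactation, with 8 reads.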
